A study of Mus musculus with 12 samples.

Results

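The 7 genes described here encode the core of MHC class II antigen presentation, and were taken as the rows of the deposited table whose symbol was H2-Aa, H2-Ab1, H2-Eb1, H2-DMa, H2-DMb1, Cd74 or Ciita, 7 of 21956 genes in all. Their RNA was measured in brain tissue bordering a hematoma 48 h after experimental intracerebral hemorrhage (ICH), and in the matching tissue of sham-operated mice. ICH was produced by collagenase injected into the right striatum, and sham surgery left out the collagenase. The series holds 12 libraries, 3 in each of the groups Sham-Fabp4fl_fl, Sham-Fabp4CKO, ICH-Fabp4fl_fl and ICH-Fabp4CKO. All 4 groups carried floxed Fabp4, the gene of fatty acid-binding protein 4. The Fabp4CKO mice also carried an inducible Cre recombinase driven by the promoter of Tmem119, a microglial gene, and had received tamoxifen before surgery. Whether Fabp4fl_fl mice received tamoxifen, and the age of the floxed animals, are not given in the sources used here. Because Cre was aimed at microglia and the RNA came from whole tissue, each value sums over all cell types in the piece, and fewer cells of a type cannot be told apart from less RNA per cell.

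MHC class II molecules are pairs of an alpha and a beta chain that carry peptides of engulfed proteins to the cell surface, where CD4+ T cells read them. The pair is assembled with the invariant chain Cd74, which blocks the peptide groove until proteases of the endosome cut it away, and H2-DM then exchanges the last fragment for a peptide. In the undisturbed brain, microglia hold little class II, and both microglia and macrophages that enter from the blood can raise it in inflammation. Ciita, the class II transactivator, does not bind DNA itself but docks on RFX, CREB and NF-Y proteins held at the X and Y boxes of class II promoters.

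To show the elements that Ciita docks on, the promoter table of RefSeq (GRCm38.p6) was searched in the 250 bases before each start. It held 5 entries for 4 members, namely H2-Aa, H2-Eb1, H2-DMb1 and 2 starts of H2-DMa. The letters of the Y box, CCAAT on either strand, lay in 4 of these 5 and in 33.8% of all 32851 promoters. The pair AGNAAC then ATTGG, the core of the X box followed by the Y box on the same strand after 20 to 36 bases and so always overlapping a CCAAT match, lay in 2 of the 5, H2-Eb1 and H2-DMb1, and in 0.752% of all promoters. Outside the members it also lay in 3 of 4 promoters of other class II chains, H2-Oa, H2-Ob and H2-Eb2. Below are the 130 bases before the start of an alpha chain gene, H2-Aa (chr17:34287824-34287953, minus strand), and of a beta chain gene, H2-Eb1 (chr17:34305737-34305866, plus strand), written 5′ to 3′ along each gene. Capitals mark ATTGG in H2-Aa, and AGCAAC with ATTGG in H2-Eb1.
H2-Aa: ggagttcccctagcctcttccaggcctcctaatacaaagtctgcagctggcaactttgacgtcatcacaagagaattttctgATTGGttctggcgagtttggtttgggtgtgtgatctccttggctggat
H2-Eb1: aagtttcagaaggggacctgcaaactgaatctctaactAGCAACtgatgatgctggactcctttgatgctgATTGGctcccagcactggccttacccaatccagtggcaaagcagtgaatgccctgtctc
Counted back from the start, ATTGG of H2-Aa spanned bases -48 to -44. The pair in H2-Eb1 spanned bases -92 to -55 with a gap of 27 bases, and that in H2-DMb1 spanned bases -95 to -57 with a gap of 28 bases. H2-Eb1 held a second CCAAT, left in lower case, at bases -35 to -31. These matches describe letters only, and no match in a window says nothing of the protein that binds there.

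The 12 libraries held 15650813 to 22406216 counts each. Fabp4, the targeted gene, had 46, 63 and 24 counts in the ICH-Fabp4fl_fl libraries and 5, 3 and 10 in the ICH-Fabp4CKO libraries, so that these groups did not overlap. It had 2, 1 and 2 counts in the Sham-Fabp4fl_fl libraries and 0 in each Sham-Fabp4CKO library. The summed level of 5 neuronal markers was 3070 to 4210 CPM (counts per 1000000 counts of the TMM-normalized library size) in the 6 sham libraries and 904 to 2990 CPM after ICH, so that neuronal markers were present in all 12. The highest of these ICH sums, 2990 CPM, was that of ICH-Fabp4CKO library 2, where Slc17a7, 1 of the 5 markers, was at 387 CPM. In the other ICH libraries Slc17a7 was at 7.54 to 82.6 CPM. Sham-Fabp4fl_fl libraries 1 and 2 had 274 and 394 CPM of it, against 35.9 to 81.8 CPM in the other sham libraries. Differences in the makeup of the tissue pieces were not tested. ICH-Fabp4CKO library 1 had 1 count over 4 Y-linked genes against 1302 to 2251 in the 11 other libraries. ICH-Fabp4fl_fl library 1 had 16.3% of its counts on mitochondrial genes, the highest of a range that began at 7.9%. The labels do not say whether the libraries of a group came from separate mice, so that the p-values measure the spread between libraries, which may be partly technical.

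All 7 genes rose after ICH, in Fabp4fl_fl and in Fabp4CKO mice alike, and in each gene every ICH library lay above every sham library of its genotype. In Fabp4fl_fl mice the 3 chains of presenting molecules, H2-Aa, H2-Ab1 and H2-Eb1, rose 18.9-fold to 22.2-fold. Cd74 rose 14.7-fold, Ciita 13.8-fold and H2-DMb1 6.92-fold, while H2-DMa rose 2.68-fold. After ICH the libraries of the 2 genotypes overlapped for each of the 7. In the plot of the 7 genes by library no sham point reached the lowest ICH point in any panel.

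**Figure D1:**
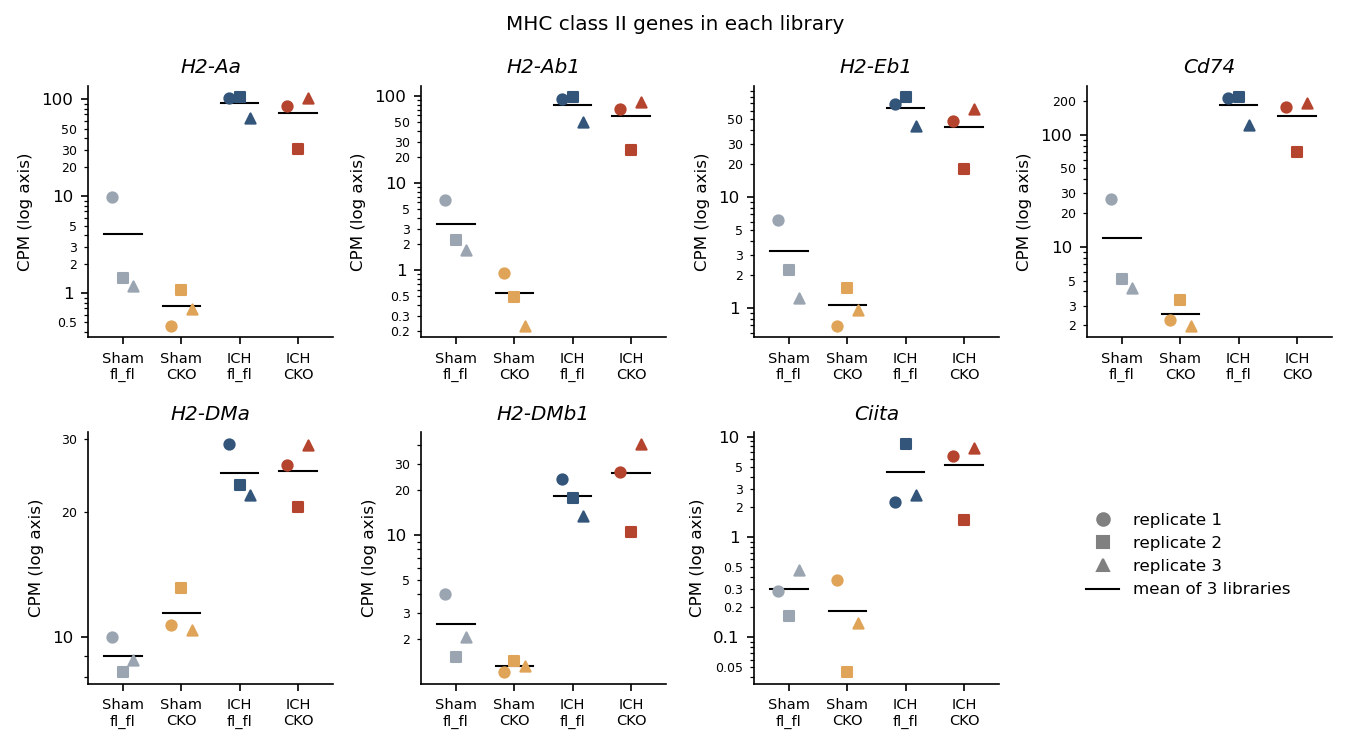
Level of each class II gene (CPM, log axis) in the 12 libraries, with 1 point per library, its shape giving the replicate number and the line the mean of 3. H2-Aa lay at 63.8 to 105 CPM in ICH-Fabp4fl_fl and at 1.19 to 9.78 CPM in Sham-Fabp4fl_fl, where library 1 was the highest.

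Of the genes of the presenting molecules, H2-Aa (ENSMUSG00000036594) encodes the alpha chain of I-A. Its level was 9.78, 1.42 and 1.19 CPM in Sham-Fabp4fl_fl libraries 1, 2 and 3, and 104, 105 and 63.8 CPM in ICH-Fabp4fl_fl. It was 0.462, 1.07 and 0.689 CPM in Sham-Fabp4CKO, and 86.3, 30.8 and 103 CPM in ICH-Fabp4CKO. The groups of neither genotype overlapped between sham and ICH, library 1 of Sham-Fabp4fl_fl stood above the other 5 sham libraries, and library 2 of ICH-Fabp4CKO stood below the other 5 ICH libraries. H2-Aa rose 21.2-fold in Fabp4fl_fl mice, a log2 fold change of 4.40 (SE 0.78, adjusted p = 0.00443, edgeR quasi-likelihood test with Benjamini-Hochberg adjustment over all genes). In Fabp4CKO mice it rose 98.0-fold, a log2 fold change of 6.61 (SE 0.62, adjusted p = 0.00478, same test). With Sham-Fabp4fl_fl library 1 left out, the log2 fold change in Fabp4fl_fl mice was 6.02 (adjusted p = 0.00115, edgeR).

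H2-Ab1 (ENSMUSG00000073421), the beta chain of I-A, ran beside its partner. It had 6.36, 2.25 and 1.70 CPM in Sham-Fabp4fl_fl and 91.8, 96.8 and 50.0 CPM in ICH-Fabp4fl_fl. In Sham-Fabp4CKO it had 0.925, 0.492 and 0.230 CPM, from 5 to 20 counts, and in ICH-Fabp4CKO 70.5, 24.1 and 85.1 CPM. Again the same sham library was the highest of its group and the same ICH library the lowest, with no overlap between sham and ICH. The log2 fold change was 4.48 (SE 0.53, adjusted p = 0.000881, edgeR) in Fabp4fl_fl mice and 6.76 (SE 0.71, adjusted p = 0.00529) in Fabp4CKO mice, or 22.2-fold and 108-fold. Without Sham-Fabp4fl_fl library 1 the first of these was 5.23.

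H2-Eb1 (ENSMUSG00000060586), the beta chain of I-E, had 6.26, 2.19 and 1.24 CPM in Sham-Fabp4fl_fl and 68.2, 78.8 and 43.3 CPM in ICH-Fabp4fl_fl. Its levels were 0.693, 1.52 and 0.965 CPM in Sham-Fabp4CKO and 48.7, 17.7 and 62.1 CPM in ICH-Fabp4CKO. It rose 18.9-fold in Fabp4fl_fl mice (log2 fold change 4.24, SE 0.56, adjusted p = 0.00139, edgeR) and 40.2-fold in Fabp4CKO mice (5.33, SE 0.59, adjusted p = 0.00549). Without Sham-Fabp4fl_fl library 1 the log2 fold change in Fabp4fl_fl mice was 5.11. The I-E alpha chain H2-Ea had no row under that symbol and was not analysed here, so that the H2-Eb1 values do not show whether an I-E pair could form.

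Cd74 (ENSMUSG00000024610), the invariant chain, was the most abundant of the 7 by CPM in every ICH library. It had 26.5, 5.2 and 4.34 CPM in Sham-Fabp4fl_fl and 213, 215 and 121 CPM in ICH-Fabp4fl_fl. In the knockout groups it had 2.22, 3.36 and 1.98 CPM in sham and 176, 70.5 and 192 CPM after ICH. These groups did not overlap between sham and ICH in either genotype. The log2 fold change was 3.88 (SE 0.72, adjusted p = 0.00537, edgeR) in Fabp4fl_fl mice, or 14.7-fold, and 5.86 (SE 0.50, adjusted p = 0.00478) in Fabp4CKO mice, or 58.0-fold. Without Sham-Fabp4fl_fl library 1 the first was 5.16.

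The 2 chains of H2-DM, the peptide exchanger, did not move by the same amount. H2-DMa (ENSMUSG00000037649) was at 10, 8.21 and 8.78 CPM in Sham-Fabp4fl_fl and at 29.2, 23.3 and 22 CPM in ICH-Fabp4fl_fl. It was at 10.7, 13.1 and 10.4 CPM in Sham-Fabp4CKO and at 25.9, 20.6 and 29.0 CPM in ICH-Fabp4CKO. The 3 values of each group were close together, and ICH lay above sham without overlap. H2-DMa rose 2.68-fold (log2 fold change 1.42, SE 0.17, adjusted p = 0.000897, edgeR) in Fabp4fl_fl mice and 2.21-fold (1.14, SE 0.18, adjusted p = 0.00944) in Fabp4CKO mice. The second call was lost without Sham-Fabp4CKO library 1 (adjusted p = 0.0565, edgeR) and without library 3 (0.0545), while the log2 fold change stayed at 1.00 or above whichever library was left out.

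H2-DMb1 (ENSMUSG00000079547) was lower than H2-DMa in every sham library, at 4.00, 1.53 and 2.07 CPM in Sham-Fabp4fl_fl and 1.2, 1.43 and 1.33 CPM in Sham-Fabp4CKO. After ICH it reached 23.7, 17.6 and 13.4 CPM in Fabp4fl_fl mice and 26.4, 10.5 and 40.8 CPM in Fabp4CKO mice. It rose 6.92-fold (log2 fold change 2.79, SE 0.38, adjusted p = 0.00161, edgeR) and 19.5-fold (4.29, SE 0.54, adjusted p = 0.00599) in the 2 genotypes. The ratio of H2-DMb1 to H2-DMa counts accordingly lay at 0.609 to 0.811 after ICH against 0.187 to 0.398 in sham in Fabp4fl_fl mice, and at 0.509 to 1.41 against 0.109 to 0.128 in Fabp4CKO mice. Both steps were without overlap, as for 8.63% and 10.1% of genes set over H2-DMa in the 2 genotypes, at the smallest p that an exact two-sided permutation test of 3 against 3 allows, 0.1. H2-DMb1 has a near-identical neighbour, H2-DMb2, and in 4 of 12 libraries neither count was whole, although their sum was (94, 367, 442 and 817), so that reads were split between this pair and both levels are uncertain to that extent.

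Ciita (ENSMUSG00000022504) was the scarcest of the 7. It had 6, 3 and 9 counts in the Sham-Fabp4fl_fl libraries and 8, 1 and 3 in the Sham-Fabp4CKO libraries, or 0.0448 to 0.465 CPM over the 6. After ICH it had 32, 136 and 49 counts (2.25, 8.48 and 2.60 CPM) in Fabp4fl_fl mice and 100, 28 and 140 counts (6.46, 1.49 and 7.65 CPM) in Fabp4CKO mice. Even the lowest ICH library lay above the highest sham library. The log2 fold change was 3.78 (SE 0.69, adjusted p = 0.00495, edgeR) in Fabp4fl_fl mice and 4.78 (SE 0.88, adjusted p = 0.0128) in Fabp4CKO mice. The first was 2.89 without ICH-Fabp4fl_fl library 2. The second was 5.74 without Sham-Fabp4CKO library 1, and its call was lost without Sham-Fabp4CKO library 2 (adjusted p = 0.0591, edgeR), Sham-Fabp4CKO library 3 (0.0671) or ICH-Fabp4CKO library 1 (0.0502).

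Thus all 7 of 7 members passed the adjusted threshold upward in Fabp4fl_fl mice, where 26.2% of all 14719 genes tested did, and their median log2 fold change was 3.88 against 0.02 over all genes. In Fabp4CKO mice 7 of 7 passed upward against 24.5% of 14737 genes, with a median of 5.33 against 0.01. With single libraries left out the count in Fabp4CKO mice was 5 to 7, lowest without Sham-Fabp4CKO library 3. A rise without overlap was seen in 34.4% of all genes in Fabp4fl_fl mice and in 33.2% in Fabp4CKO mice.

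**Figure D2:**
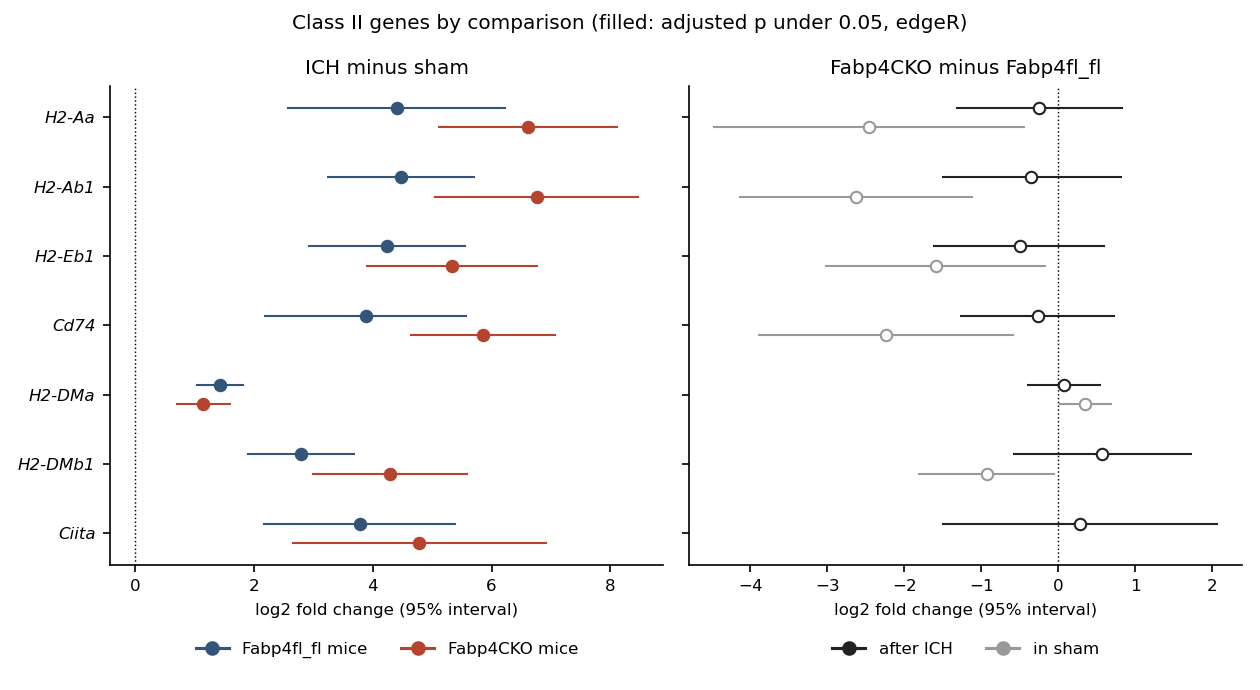
Log2 fold change of each class II gene (edgeR, with its 95% interval) for ICH minus sham in each genotype (left) and for Fabp4CKO minus Fabp4fl_fl after ICH and in sham (right), filled where the adjusted p was under 0.05. All 14 values on the left are filled and none of the 13 on the right is, with H2-DMa the smallest rise at 1.42 and 1.14.

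Levels between genes were compared per length, as CPM per kilobase of merged exons, a length that overstates genes with long minor transcripts. On that scale Cd74 led in ICH-Fabp4fl_fl with 109 ± 31.9 (SD, n = 3), and its libraries did not overlap with those of any other member. H2-Eb1 (32.6 ± 9.38), H2-Ab1 (31.0 ± 10) and H2-Aa (23.9 ± 6.21) followed, each overlapping with the next. H2-DMb1 (10.8 ± 3.09) and H2-DMa (7.20 ± 1.11) lay below the 3 chains and overlapped with each other, and Ciita was last with 0.466 ± 0.367. In Sham-Fabp4fl_fl Cd74 also had the highest mean, at 7.16 ± 7.49, but its range of 2.58 to 15.8 overlapped with the 2.38 to 2.91 of H2-DMa, whose mean was 2.61 ± 0.268. In Sham-Fabp4CKO H2-DMa led with 3.30 ± 0.435 and Cd74 came next with 1.5 ± 0.439, without overlap. There H2-DMb1 (0.787 ± 0.0689) overlapped with H2-Eb1 (0.545 ± 0.217), and H2-Ab1 (0.214 ± 0.137) with H2-Aa (0.195 ± 0.0815).

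After ICH Cd74 and H2-Aa kept a narrow proportion within each library. The ratio of Cd74 to H2-Aa counts was 2.06, 2.04 and 1.91 in ICH-Fabp4fl_fl and 2.04, 2.29 and 1.86 in ICH-Fabp4CKO, although H2-Aa itself ranged from 30.8 to 103 CPM in the second group. In sham it was 2.71, 3.65 and 3.65 in Fabp4fl_fl mice and 4.80, 3.12 and 2.87 in Fabp4CKO mice. The ratio was lower after ICH than in sham without overlap in both genotypes (exact two-sided permutation test, p = 0.1, the smallest possible), on H2-Aa counts of as few as 10 in sham. The same held for 94.7% of the genes tested when set over H2-Aa in Fabp4fl_fl mice and for 97.6% in Fabp4CKO mice. Within groups, over 12 libraries, Pearson's r of a member with the mean of the others on the log2 scale was 0.920 for Cd74, 0.862 to 0.897 for H2-Aa, H2-Ab1, H2-Eb1 and H2-DMb1, 0.740 for H2-DMa and 0.369 for Ciita. These libraries share their depth and the makeup of their tissue piece, so that r is a description only.

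Whether loss of microglial Fabp4 went with a different class II level after ICH was asked by comparing ICH-Fabp4CKO with ICH-Fabp4fl_fl, and no member separated the groups. None of the 7 passed the adjusted threshold in edgeR (adjusted p 0.658 to 0.904), none passed an unadjusted p under 0.05, and all 7 overlapped between the groups, where 19.8% of genes did not. In this comparison 0% of all 14600 genes passed the adjusted threshold in edgeR, 12.2% had an unadjusted p under 0.05, and 3.96% passed in DESeq2, which called 0 members too. The intervals leave room for sizeable differences. H2-Aa had a log2 difference of -0.25 (95% interval -1.32 to 0.83), H2-Ab1 of -0.35 (-1.50 to 0.81), H2-Eb1 of -0.50 (-1.61 to 0.60) and Cd74 of -0.26 (-1.26 to 0.73). The tightest was H2-DMa with 0.08 (-0.39 to 0.54), followed by values of 0.57 (-0.58 to 1.73) for H2-DMb1 and 0.28 (-1.50 to 2.06) for Ciita. Without ICH-Fabp4CKO library 2, the low one, H2-Aa stood at 0.12, H2-Ab1 at 0.03, Cd74 at 0.07, H2-Eb1 at -0.13 and H2-DMb1 at 0.95, none of them called. Without ICH-Fabp4CKO library 1, the one nearly free of Y-linked counts, 0 members were called and H2-Aa stood at -0.38.

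Markers of some other cell types did not overlap between these groups. All 4 oligodendrocyte markers were lower in every ICH-Fabp4CKO library, summing to 5530 to 9270 CPM against 14400 to 21800 CPM (median log2 difference -1.19), as were all 4 endothelial markers, at 200 to 288 CPM against 377 to 849 CPM (median -1.27). Such a separation downward was seen in 11.5% of genes. None of these 8 passed in edgeR (adjusted p 0.209 to 0.350), and DESeq2 called 4 and 1 of them. The 6 neutrophil markers tested had a median of 2.26 (adjusted p 0.295 to 0.729, edgeR), with 4 called by DESeq2 and 1 without overlap. Of 6 T cell markers 5 had a negative point value (median -0.82), and 3 did not overlap. None of the 6 passed in edgeR (adjusted p 0.318 to 0.961), and DESeq2 called 1. Of 4 astrocyte markers 2 did not overlap (median -0.48, adjusted p 0.295 to 0.677, edgeR), and DESeq2 called 2. A separation in either direction was seen in 19.8% of genes. The part of these cell types in the class II values was not tested.

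Some proportions between members did not overlap between the genotypes after ICH, in ratios picked from 13 after their values were seen, so that they are a description. H2-DMb1 to H2-Aa was 0.229, 0.167 and 0.210 in ICH-Fabp4fl_fl and 0.306, 0.341 and 0.396 in ICH-Fabp4CKO. Every knockout library lay above every other one, as did 12.4% of all genes when set over H2-Aa. H2-Eb1 to H2-Aa was 0.659, 0.747 and 0.679 in ICH-Fabp4fl_fl and 0.565, 0.576 and 0.604 in ICH-Fabp4CKO, all lower, as were 1.29% of genes set over H2-Aa. Both differences had p = 0.1 in the exact two-sided permutation test, which 3 against 3 cannot go below.

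Other ratios were taken over Ptprc, the pan-leukocyte CD45 gene. Ptprc itself was at 71.7, 65.9 and 40.1 CPM in ICH-Fabp4fl_fl and at 122, 33.5 and 181 CPM in ICH-Fabp4CKO, so that its groups overlapped. The ratio of H2-Aa to Ptprc counts was 1.45, 1.60 and 1.59 in ICH-Fabp4fl_fl and 0.704, 0.920 and 0.570 in ICH-Fabp4CKO. That of Cd74 was 2.97, 3.26 and 3.03 against 1.44, 2.11 and 1.06. H2-Aa, H2-Ab1, H2-Eb1 and Cd74, 4 of the 7 members, were lower over Ptprc in every ICH-Fabp4CKO library, as were 7.26% of the other genes tested, while H2-DMa, H2-DMb1 and Ciita overlapped. Each of the 4 had p = 0.1 in the exact two-sided permutation test, the smallest possible. In sham the same 4 ratios were also lower in every Fabp4CKO library (2.69% of genes), for H2-Aa 0.213, 0.414 and 0.242 against 2.74, 0.456 and 0.605. Between ICH and sham in Fabp4fl_fl mice, H2-Aa over Ptprc overlapped (1.45 to 1.60 against 0.456 to 2.74), as did H2-Ab1, H2-Eb1, Cd74 and Ciita. H2-DMa (0.354 to 0.549 against 2.63 to 4.47 in Fabp4fl_fl mice) and H2-DMb1 were lower after ICH without overlap in both genotypes. In Fabp4CKO mice H2-Aa (0.570 to 0.920 against 0.213 to 0.414) and H2-Ab1 were higher, and H2-Eb1, Cd74 and Ciita overlapped. Shares of all genes for these steps are not given here. Ratios to 1 gene move with that gene as much as with the member, and which of them moved was not tested.

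**Figure D3:**
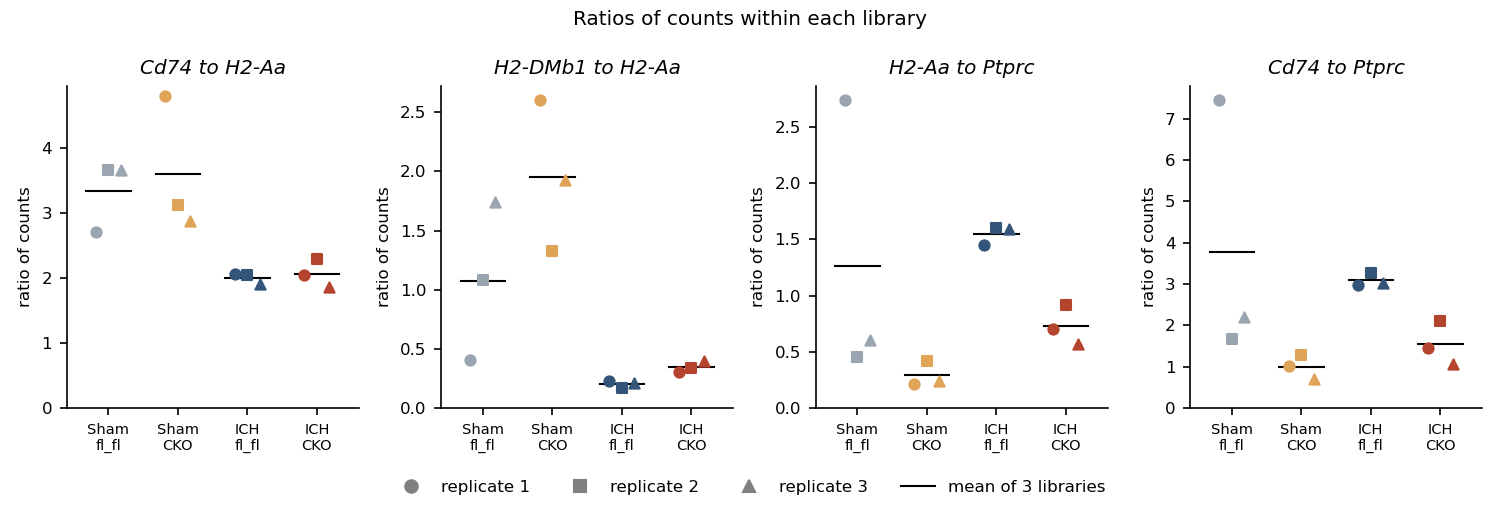
Ratio of counts within each library for 4 pairs of genes, with 1 point per library, its shape giving the replicate number and the line the mean of 3. Over Ptprc, H2-Aa lay at 1.45 to 1.60 in ICH-Fabp4fl_fl and at 0.570 to 0.920 in ICH-Fabp4CKO.

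In sham tissue the class II chains had lower mean levels in Fabp4CKO than in Fabp4fl_fl libraries, by differences that did not pass the adjusted threshold and that leaned on 1 library. Of the 6 members tested (Ciita fell under the filter on low counts), 0 passed in edgeR (adjusted p 0.371 to 0.484), where 0.111% of 14395 genes did. All 6 had an unadjusted p under 0.05, as did 10.2% of genes, and 5 of 6 did not overlap between the groups, as did 14.8%. The log2 difference was -2.46 (95% interval -4.47 to -0.44) for H2-Aa, -2.63 (-4.13 to -1.12) for H2-Ab1, -1.59 (-3.02 to -0.17) for H2-Eb1 and -2.24 (-3.89 to -0.59) for Cd74. H2-DMb1 was at -0.93 (-1.81 to -0.05), and H2-DMa differed in the other direction, at 0.35 (0.02 to 0.68). Without Sham-Fabp4fl_fl library 1 the differences shrank to -0.81 for H2-Aa, -0.69 for H2-Eb1, -0.44 for H2-DMb1 and -0.92 for Cd74, and H2-Ab1 remained the lowest at -1.84 (adjusted p = 0.730, edgeR). Without Sham-Fabp4fl_fl library 3, 4 members were called lower, H2-Aa, H2-Ab1, H2-Eb1 and Cd74, as were 1331 genes in all. DESeq2 called H2-Ab1 alone (adjusted p = 0.00435), where it called 1.04% of genes.

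Sham-Fabp4fl_fl library 1 was also the highest sham library for some other myeloid transcripts but not for all. Summed over the 7 members it had 63.3 CPM, against 15.7 to 21.0 CPM in the other 5 sham libraries. Lyz2, a lysozyme of macrophages and neutrophils, was at 46.8 CPM in it and at 8.04 to 12.2 CPM in the others. Gpnmb, a glycoprotein of lipid-laden and phagocytic macrophages, was at 40 CPM against 1.48 to 2.79 CPM. Its Ptprc level was 3.57 CPM against 1.96 to 3.12 CPM. Lyz2 and Gpnmb were named for their likeness to the members and so do not stand for myeloid genes at large. The summed monocyte and macrophage markers were at 140 CPM in it against 84.3 to 97.4 CPM, and the summed microglial markers at 413 CPM against 341 to 386 CPM. The microglial genes P2ry12 and Tmem119, at 34.9 and 31.4 CPM, and the myeloid factor Spi1, at 5.11 CPM, were not highest in that library, since Sham-Fabp4CKO library 2 had 43.9, 33.4 and 5.33 CPM. The part of these cells in the sham difference was not tested.

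The rise after ICH was set against genotype in an interaction test on all 12 libraries, the log2 rise in Fabp4CKO minus that in Fabp4fl_fl mice. It shares all its libraries with the comparisons above. None of the 7 passed (adjusted p 0.435 to 0.838, edgeR), where 0.0199% of 15089 genes did, and 1 of 7, H2-Ab1, had an unadjusted p under 0.05, as did 9.94% of genes. DESeq2 called 0 members and 1.76% of genes. The difference of rises was 2.16 (95% interval -0.17 to 4.50) for H2-Aa, 2.23 (0.27 to 4.20) for H2-Ab1, 1.93 (-0.06 to 3.92) for Cd74 and -0.32 (-0.86 to 0.22) for H2-DMa. Without Sham-Fabp4fl_fl library 1 it was 0.50 for H2-Aa, 1.43 for H2-Ab1 and 0.59 for Cd74. This test thus did not separate the larger point values of the knockout mice from those of Fabp4fl_fl mice, and their size moved with the sham level of 1 library.

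Other genes of the pathway were read from lists given by role. Of the remaining class II chains, 3 of 3 tested rose in each genotype, where 26.2% of all genes rose in Fabp4fl_fl and 24.5% in Fabp4CKO mice. H2-DMb2 had a log2 fold change of 2.07 (SE 0.37, adjusted p = 0.00462, edgeR) in Fabp4fl_fl and 2.11 (SE 0.41, 0.0149) in Fabp4CKO mice. H2-Oa and H2-Ob, the chains of H2-DO that hold H2-DM in check, rose by 1.76 (SE 0.56, adjusted p = 0.0360) and 1.82 (SE 0.37, 0.00713) in Fabp4fl_fl mice. Their levels after ICH were low, 1.55 to 3.17 CPM for H2-Oa and 2.82 to 5.41 CPM for H2-Ob, and H2-Eb2 was at 0 to 0.774 CPM and fell under the filter. Between the genotypes after ICH H2-Ob lay at 0.42 and H2-Oa at -0.50, neither called, although every ICH-Fabp4CKO library was below every other one for H2-Oa, as for 11.5% of genes.

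Among 10 genes of the endosomal machinery that prepares class II, 8 rose in each genotype, against 26.2% and 24.5% of all genes. The largest log2 fold change was that of Ifi30, the thiol reductase that opens disulfide bonds of antigens, with 5.73 (SE 0.47, adjusted p = 0.000352, edgeR) in Fabp4fl_fl and 5.85 (SE 0.72, 0.00599) in Fabp4CKO mice. Ifi30 went from 1.93 to 2.94 CPM over the 6 sham libraries to 34.7 to 243 CPM over the 6 ICH libraries. Ctss, the protease that cuts the invariant chain, rose by 2.84 (SE 0.35, adjusted p = 0.00104) and 4.29 (SE 0.49, 0.00569), from 72.7 to 168 CPM in sham to 657 to 2600 CPM after ICH. Marchf1 and Marchf8, ubiquitin ligases that remove class II from the surface, did not pass in either genotype, at 0.17 (95% interval -0.14 to 0.47) and 0.17 (-0.19 to 0.54) in Fabp4fl_fl mice. Between the genotypes after ICH 0 of the 10 passed, and 9 of 10 had a positive point value. Ctsd, a lysosomal aspartic protease, had the smallest p, with a log2 difference of 1.75 (95% interval 0.26 to 3.24, adjusted p = 0.360, edgeR), and Ifi30 was at -0.14 (-1.75 to 1.47). Ctsd was at 6700, 4780 and 3420 CPM in ICH-Fabp4fl_fl and 16400, 5330 and 26000 CPM in ICH-Fabp4CKO, with overlap between the groups.

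Of 12 transcription factors and docking proteins of class II genes, 6 rose and 1 fell in Fabp4fl_fl mice, and 5 rose in Fabp4CKO mice. Upward calls made up 26.2% of all genes in Fabp4fl_fl and 24.5% in Fabp4CKO mice, and downward calls made up 19.3% in Fabp4fl_fl mice. Irf1, which drives Ciita, rose by 2.41 (SE 0.16, adjusted p = 0.000287, edgeR), and Irf8, a factor of macrophages and microglia, by 3.33 (SE 0.26, 0.000350). In Fabp4CKO mice they rose by 2.51 and 4.12. Among the proteins held at the promoter, Rfx5 was at -0.40 (95% interval -0.85 to 0.04) and -0.36 (-0.78 to 0.06), uncalled in both genotypes. In Fabp4fl_fl mice every ICH library lay below every sham library for Rfx5, as for 27.4% of genes. Rfxap fell by 0.56 on the log2 scale (SE 0.16, adjusted p = 0.0269) in Fabp4fl_fl mice and stood at -0.41 (adjusted p = 0.0744) in Fabp4CKO mice. Nfya, a subunit of the factor that binds the CCAAT box, rose by 0.95 (SE 0.20, adjusted p = 0.00822) and 1.60 (SE 0.30, 0.0135), while its partners Nfyb and Nfyc were within 0.13 of 0 and not called. Between the genotypes after ICH none of the 12 passed, with Nfya at 0.84 (adjusted p = 0.389) and Nfyb at -0.12 (adjusted p = 0.805).

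Interferon gamma, the classical inducer of Ciita, was hardly seen. Ifng was at 0 in 5 of 12 libraries and at most at 0.213 CPM, and fell under the filter, so that no change was detectable at this depth. Its receptor chain Ifngr1 rose by 1.5 (SE 0.13, adjusted p = 0.000400, edgeR) in Fabp4fl_fl and 2.16 (SE 0.38, 0.0118) in Fabp4CKO mice. Of the 5 genes of this list that were tested, 3 rose in each genotype, against 26.2% and 24.5% of all genes. Jak1, a kinase of the receptor, was at -0.27 (adjusted p = 0.130) and 0.23 (adjusted p = 0.237). It had the smallest p of its list in the genotype comparison after ICH, with a log2 difference of 0.58 (SE 0.18, adjusted p = 0.341, edgeR) that DESeq2 called (adjusted p = 0.0478). Socs1, an inhibitor of the pathway, was at -0.53 (adjusted p = 0.669) there.

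**Figure D4:**
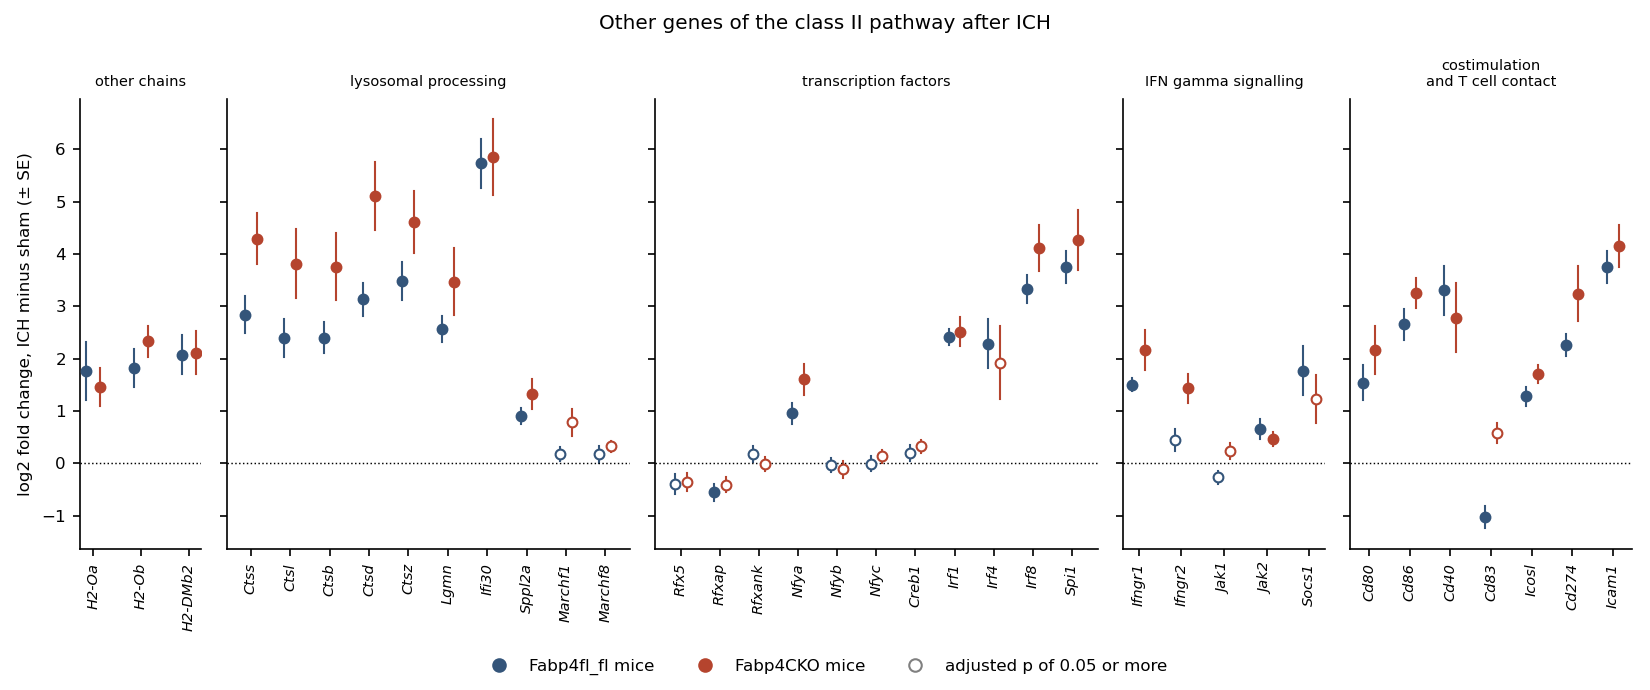
Log2 fold change of ICH minus sham (edgeR, bars of 1 SE) for other genes of the class II pathway that are reported here, by role, in Fabp4fl_fl and Fabp4CKO mice, open where the adjusted p was 0.05 or more. Ifi30 rose most in both genotypes (5.73 and 5.85), Rfx5 was not called in either (-0.40 and -0.36), and Cd83 lay on opposite sides of 0 (-1.03 and 0.58).

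Of 7 costimulatory and contact molecules tested, 6 rose in each genotype, against 26.2% and 24.5% of all genes. Icam1, an adhesion molecule, rose by 3.75 (SE 0.30, adjusted p = 0.000350, edgeR) and 4.15 (SE 0.40, 0.00478), and Cd86, the costimulatory ligand of CD28, by 2.65 (SE 0.30, 0.000744) and 3.25 (SE 0.29, 0.00478). Cd83, known to keep class II at the surface by opposing Marchf1, went against the others in Fabp4fl_fl mice. It was at 39.8, 31.8 and 24.2 CPM in Sham-Fabp4fl_fl and at 18.9, 15.6 and 13.8 CPM in ICH-Fabp4fl_fl. In Fabp4CKO mice it was at 28.4, 22.5 and 32 CPM in sham and at 46.3, 33.9 and 43.8 CPM after ICH. Every ICH library lay below sham in Fabp4fl_fl mice, as for 27.4% of genes, and above sham in Fabp4CKO mice, as for 33.2%. Cd83 fell by 1.03 on the log2 scale (SE 0.21, adjusted p = 0.00759, edgeR) in Fabp4fl_fl mice and stood at 0.58 (SE 0.19, adjusted p = 0.0542) in Fabp4CKO mice. After ICH its knockout libraries all lay above the others, as for 8.3% of genes, with a log2 difference of 1.42 (SE 0.19). That difference did not pass in edgeR (adjusted p = 0.194) and passed in DESeq2 (adjusted p = 2.27e-07). The interaction was 1.57 (adjusted p = 0.140 in edgeR and 0.000464 in DESeq2). In the same list Icam1 was at -0.27 (adjusted p = 0.792) between the genotypes after ICH.

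The genes that moved most like the members within groups, over 12 libraries and 15082 genes, were Lyz2 (r = 0.983), Plekha2 (0.974), Gpnmb (0.967), Tap1 (0.967) and Itgal (0.962), ranked by Pearson's r of log2 CPM, each centred on its group mean, with the mean of the members. For all 5 genes Sham-Fabp4fl_fl library 1 was the highest sham library and ICH-Fabp4CKO library 2 the lowest of its group. Group means are taken out of this measure. Lyz2 was at 1280, 1260 and 641 CPM in ICH-Fabp4fl_fl and at 4380, 908 and 7910 CPM in ICH-Fabp4CKO, and Gpnmb at 609, 558 and 271 CPM against 3660, 588 and 7750 CPM. In ICH-Fabp4CKO libraries 1 and 3 both thus lay more than 3-fold above every ICH-Fabp4fl_fl library, where the 7 class II genes, summed, were at 440 and 520 CPM against 532, 546 and 316 CPM.

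Markers of several myeloid cell types also rose after ICH, where 26.2% of all genes rose in Fabp4fl_fl and 24.5% in Fabp4CKO mice. All 8 monocyte and macrophage markers rose in each genotype, from a summed 84.3 to 140 CPM over the sham libraries to 1150 to 2920 CPM in ICH-Fabp4fl_fl and 1300 to 10500 CPM in ICH-Fabp4CKO, and Chil3 was at 0 in all Sham-Fabp4CKO libraries. The highest sum, that of ICH-Fabp4CKO library 3, was led by Lyz2 (7910 CPM) and Fn1 (2250 CPM) and does not stand for the whole list. All 7 microglial markers rose too, from 341 to 413 CPM to 1440 to 1680 and 1470 to 4350 CPM. Of 6 markers of border-associated macrophages, 3 rose in Fabp4fl_fl and 5 in Fabp4CKO mice, with sums of 3.58 to 12.6 CPM in sham and of 27.7 to 329 CPM after ICH. The highest of these sums, that of ICH-Fabp4CKO library 3, was led by F13a1 at 239 CPM. Cd163 of the same list did not rise in Fabp4CKO mice, at 0.517 to 0.799 CPM after ICH against 1.06 to 1.33 CPM in sham. Neutrophil markers rose in 5 of 5 and 6 of 6 tested, from 4.48 to 11.7 CPM to 53.3 to 245 CPM, and Ly6g was at 0 in all ICH-Fabp4fl_fl libraries. The part of each cell type in the class II rise was not tested.

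Lymphoid and dendritic markers were scarce. The 5 B cell markers summed to 0.358 to 1.19 CPM in sham and 2.40 to 5.17 CPM after ICH, only Cd79b passed the filter and rose, and Ms4a1 was at 0 in all Sham-Fabp4CKO libraries. Of 9 dendritic cell markers 2 of 5 tested rose in Fabp4fl_fl and 3 of 6 in Fabp4CKO mice, where 26.2% and 24.5% of all genes did, with sums of 21.4 to 28.8 CPM in sham and 22.7 to 53.0 CPM after ICH. In the comparison of the sham groups 6 of the 9 fell under the filter on low counts, so that the sham sums rest mostly on 3 genes. Xcr1 and Clec9a, which define cross-presenting dendritic cells, reached at most 0.748 and 0.820 CPM in any library. Of the 6 T cell markers, 3 of 5 tested rose in Fabp4fl_fl and 2 of 4 in Fabp4CKO mice, against the same shares of all genes. Cd3e, a chain of the T cell receptor complex, went from 0 to 0.274 CPM in sham to 0.547 to 1.87 CPM after ICH, and Cd3d from 0 in all sham libraries to 0.160 to 1.13 CPM. The summed list, 17.9 to 58.5 CPM in sham and 17.9 to 61.3 CPM after ICH, was led by Cd4, at 15.5 to 57.7 CPM in sham and 8.79 to 54.0 CPM after ICH, which was not called in either genotype.

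**Figure D5:**
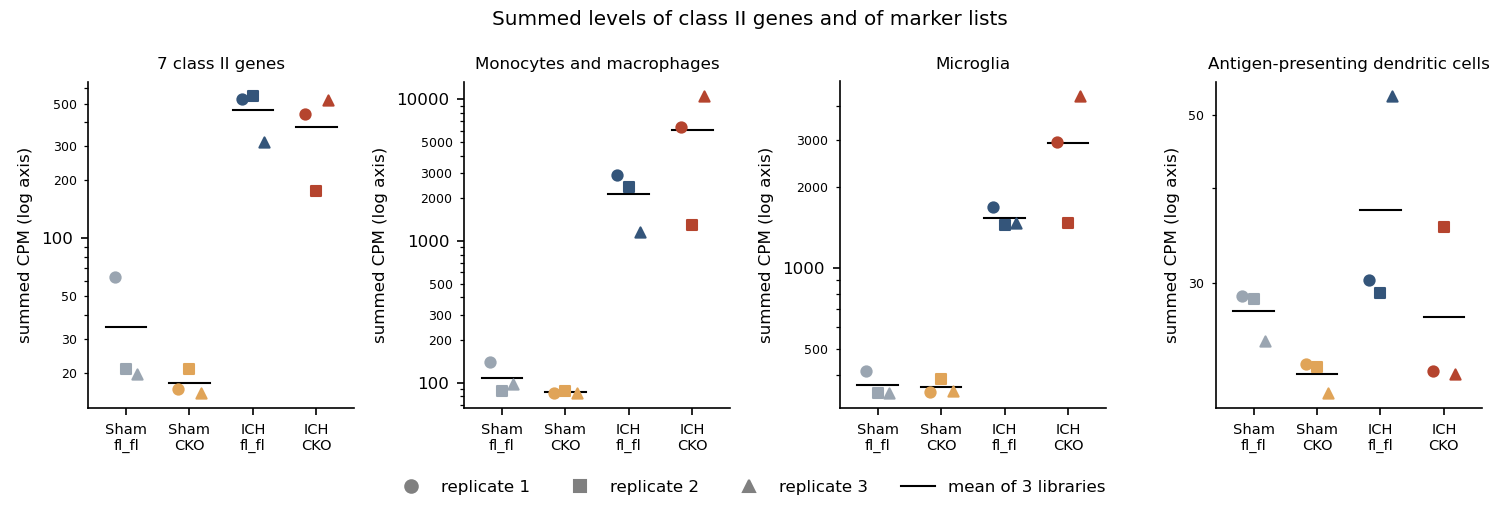
Summed CPM (log axis) of the 7 class II genes and of 3 lists of cell type markers in the 12 libraries, with 1 point per library, its shape giving the replicate number and the line the mean of 3. The class II genes summed to 176 to 520 CPM in ICH-Fabp4CKO and 316 to 546 CPM in ICH-Fabp4fl_fl, while the monocyte and macrophage list reached 10500 CPM in ICH-Fabp4CKO library 3. Lyz2 (7910 CPM) and Fn1 (2250 CPM) led that sum.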

How the data were processed

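Poly(A) RNA of 12 brain tissue libraries was sequenced on an Illumina NovaSeq6000. The authors deposited estimated counts per gene (expected counts) for 21956 genes, not normalized, and 7.36 to 8.69% of the values of a library are not whole. The submitters' processing notes name Bowtie2 2.2.8, HISAT2, StringTie 1.3.1 and DESeq2, without roles. The genome build and the annotation are not given in the sources used here, so that gene coordinates are not printed other than those of RefSeq promoters.

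After rounding, genes were kept by filterByExpr (at least 10 counts, 15 in all), scaled by TMM and compared with the quasi-likelihood F-test of edgeR 4.0.16, run under R 4.3.3. Each pair of groups was fitted alone, and the interaction on all 12 libraries. Benjamini-Hochberg adjustment ran over all genes tested, with a threshold of 0.05, and intervals are at 95%. The pairs share groups, so that their results are not independent. CPM used TMM-scaled library sizes. Lengths per gene are merged exons of GENCODE M21. Ratios of counts were compared by exact two-sided permutation tests of log2 ratios (scipy 1.17.1), and for the 13 ratios in 4 comparisons the p-values were not adjusted, since none could pass. Methods were tested on simulated data.

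The members and gene lists were chosen with earlier results of these data known. Named are the 7 members, selected pathway genes, the gene with the smallest p in each direction of each list, the 5 genes most alike and Fabp4. Some genes of the lists count in the totals but are not reported here by name. Other named genes and all ratios were chosen after their values were seen. Alternatives were RLE normalization, total counts without TMM, DESeq2 1.42.0, no filter, all 12 libraries in one fit, the replicate number as a block, and each library left out.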

Additional observations from a re-analysis of the deposited data

How the results depend on the processing

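The counts of members called kept to their side under RLE normalization, total counts without TMM, no filter on low counts and all 12 libraries in one fit, at 7 and 7 higher after ICH in Fabp4fl_fl and Fabp4CKO mice and 0 in the other 3 comparisons. DESeq2 called 1 member lower in Fabp4CKO sham, H2-Ab1 at -2.63. With single libraries left out, 5 to 7 members were called higher after ICH in Fabp4CKO mice, and 0 to 4 lower in Fabp4CKO sham, the 4 without Sham-Fabp4fl_fl library 3: H2-Aa at -2.89, H2-Ab1 at -2.95, H2-Eb1 at -1.98 and Cd74 at -2.64. Signs of uncalled genotype differences after ICH turned when a library was left out, over ranges of -0.58 to 0.12 for H2-Aa, -0.69 to 0.03 for H2-Ab1, -0.52 to 0.07 for Cd74, -0.11 to 1.14 for Ciita and -0.04 to 0.20 for H2-DMa. The cause of these changes was not tested.

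Whether replicate numbers shared by the labels pair the libraries cannot be settled with 3 libraries per group. For ICH against sham in Fabp4fl_fl mice the correlations of deviations between equal numbers were 0.196, 0.0230 and 0.127. Their mean was 0.115. It was -0.00555 for ICH against sham in Fabp4CKO mice, -0.144 between the genotypes after ICH and -0.0674 between them in sham. Deviations from a group mean cancel within the group, so that the mean between unequal numbers only mirrors these values and is no separate evidence. Between the genotypes after ICH the correlations between equal numbers ran from -0.575 to 0.311. In each comparison at least 1 pair was below 0.1. With the replicate number as a block, the members called were 7, 7, 0, 0 and 0 in the 5 comparisons, and the interaction called 1 gene higher and 0 lower, against 2 and 1 without it.

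Counts over all genes moved more. In Fabp4CKO mice 1642 genes were lower after ICH, against 3541 with DESeq2 and 2558 with all 12 libraries in one fit. Between the genotypes after ICH 0 genes were higher and 0 lower, against 255 and 323 with DESeq2 and 154 and 208 in one fit of all 12. In sham 0 were higher and 16 lower, against 11 and 139 with DESeq2, and the interaction had 183 higher and 83 lower with DESeq2, and 260 and 111 without ICH-Fabp4CKO library 2. With single libraries left out, sham calls ran from 0 to 1531 higher and 0 to 1331 lower, and those of ICH in Fabp4CKO mice from 701 to 5203 higher and 50 to 4896 lower. Low counts limit Ciita most, with 1 to 9 counts per sham library.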
